A study of Rattus norvegicus with 18 samples.

Results

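Red blood cells carry a small set of miRNAs, and 4 of them were followed in rat hearts as a possible measure of the blood left in the tissue. These were rno-miR-451-5p, both strands of its neighbour (rno-miR-144-3p, rno-miR-144-5p) and rno-miR-486. How well they measure residual blood was not tested. The prefix rno-, for rat, is left out below. They were taken by name from the 599 mature rat miRNAs listed for each library, and 4 of 4 were found. Small RNA from heart tissue was sequenced in 18 libraries, with 6 libraries in each of 3 groups. The WKY group (Wistar Kyoto rats) is labelled normal, and the SHR group (spontaneously hypertensive rats) is labelled hypertension and, by the design text, received NS. The QDG group consists of SHR that received QDG. The labels do not say what NS and QDG stand for, nor do they give the rats' age and sex, the length of treatment or whether the hearts were flushed of blood. The design text gives 6 rats per group. Whether these were 18 separate rats is not stated per library, and if they were not, the p-values measure only the spread between these libraries, which may be technical.

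A miRNA is a short RNA that guides an Argonaute protein to matching sites in messenger RNAs, chiefly through its seed, the bases 2 to 8 of the mature strand. miR-144 and miR-451 are made from a single transcript that the factor GATA1 switches on in red cell precursors, and mature red cells, although they have no nucleus, keep large amounts of both. miR-451 is matured by Argonaute 2 rather than by Dicer, and its best known target in red cells is Ywhaz, which encodes the signalling adaptor 14-3-3 zeta. miR-144-3p represses Nfe2l2, which encodes the oxidative stress factor NRF2, and miR-144-5p comes from the other arm of the same hairpin. miR-486 lies in an intron of Ank1, the gene of a red cell membrane protein, and is also made in heart and skeletal muscle from a muscle promoter of that gene, where it represses Foxo1. A heart sample can therefore hold miR-486 of its own as well as from blood.

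The mature strands show what each miRNA can pair with, and the seed is in capitals in each (RefSeq sequences, GRCr8 build, plus strand of chromosome 10 for miR-144 and miR-451). A sequence was matched for 3 of the 4 miRNAs, and miR-486 is given by name only.
miR-144-3p: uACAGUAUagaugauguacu
miR-144-5p: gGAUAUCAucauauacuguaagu
miR-451-5p: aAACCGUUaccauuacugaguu
miR-101a-3p: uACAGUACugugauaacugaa
miR-144-3p lies at chr10:63459446-63459465, its partner miR-144-5p at chr10:63459409-63459431 and, further along, miR-451-5p at chr10:63459585-63459606. The 3 seeds differ from each other. miR-101a-3p is shown because it shares the first 6 seed bases of miR-144-3p, although not the whole seed, and so does miR-101b-3p. These were the only miRNAs with that match among the 543 deposited ones that had a sequence, and both were more abundant in heart, at 3562 and 1480 reads per 1000000 (RPM) on average. Among the same 543, no other miRNA shared its first 6 seed bases with miR-144-5p or miR-451-5p.

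The 2 hairpins are shown because their shapes differ, with the mature strands analysed here in capitals.
Mir144: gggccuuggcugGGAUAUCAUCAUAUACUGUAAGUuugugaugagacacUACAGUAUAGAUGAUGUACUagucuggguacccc
Mir451a: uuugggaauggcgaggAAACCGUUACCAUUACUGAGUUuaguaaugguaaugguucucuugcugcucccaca
Mir144 (83 bases, chr10:63459397-63459479) has a mature strand on each side of its predicted loop of 6 bases, at positions 13 to 35 and 50 to 69. Mir451a (72 bases, chr10:63459569-63459640) starts 89 bases after Mir144 ends. Its mature strand covers positions 17 to 38, so that 18 of its bases precede the predicted loop and its last 4 lie in it. miR-451-3p, the entry for the opposite strand, had 1 to 13 reads per library (0.165 to 2.22 RPM), which was 0.0445 to 0.431% of the reads of both arms. Both arms of miR-144 were well represented, and miR-144-5p made up 20.3 to 29.9% of them in each library.

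Summed over the 599 miRNAs listed, the recovered counts came to 6420666 to 10169581 per library, called miRNA reads here. They exceeded the number that the authors appear to have divided by, as with 9463554 against 6556077 in WKY replicate 1. The RPM of a library therefore summed to 1338740 to 1508770 and not to 1000000. Whether some reads were counted under more than 1 miRNA was not tested. Of these totals, the 11 striated muscle miRNAs checked, miR-1 and miR-133 among them, made up 493051 to 626631 RPM. The liver miRNA miR-122-5p lay between 0.610 and 18.02 RPM. Replicate 1 of WKY and replicate 5 of SHR stood apart from the rest in principal component analysis. WKY replicate 1 lay at 6.25 on the third component (9.76% of the variance), against -2.51 to 1.996 for the other libraries, and SHR replicate 5 at -7.58 on the second (13.8%), against -3.40 to 3.69. WKY replicate 1 was also the lowest of the 18 libraries for each of the 4 miRNAs, and it had the highest level of miR-1b, the most abundant entry of the muscle miR-1 family, at 477644 RPM against 330770 to 388012 RPM elsewhere. Values without WKY replicate 1 are given beside its group differences, the spread and the slopes, and values without SHR replicate 5 beside its group differences. Correlations and, in the closing section, counts of called slopes are given with both left out.

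The 4 miRNAs were a small share of the heart's miRNA reads, from 0.260% in WKY replicate 1 to 0.441% in SHR replicate 6, and most of that was miR-486. The miR-144 and miR-451 strands together held 0.0236% in WKY replicate 1 to 0.0706% in QDG replicate 1. By mean RPM over the 18 libraries, miR-486 ranked 34th of 599 miRNAs, miR-451-5p 91st, miR-144-3p 126th and miR-144-5p 166th. miR-486 exceeded miR-451-5p by 6.65 to 15.5 times in each library, and miR-451-5p exceeded miR-144-3p by 1.49 to 3.35 times. The mature strands of miR-451-5p and miR-144-3p have 22 and 20 bases, and the length of miR-486 was not available. Unequal capture of different sequences in library preparation was not tested.

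miR-451-5p, the most abundant of the 3 strands from the joint transcript, ranged in WKY from 230 RPM over a median of 438 to 618 RPM, with a mean of 421 ± 142 (SD, n = 6). In SHR its lowest, median and highest values were 332, 458 and 529 RPM (446 ± 78.1, SD, n = 6), and in QDG they were 344, 458 and 646 RPM (473 ± 101, SD, n = 6). The lowest library was WKY replicate 1 and the next lowest WKY replicate 3 (302 RPM), whereas QDG replicate 1 and WKY replicate 5 were the highest, so both extremes of WKY lay outside the range of SHR.

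miR-144-3p, the more abundant strand of its hairpin, had a lowest, median and highest value of 80.8, 188 and 249 RPM in WKY (181 ± 55.5, SD, n = 6). In SHR these were 126, 186 and 239 RPM (180.001 ± 44.0, SD, n = 6), and in QDG 126, 209 and 302 RPM (207 ± 62.7, SD, n = 6). WKY replicate 1 was again the lowest library and QDG replicate 1 the highest, and the ranges of the 3 groups overlapped.

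miR-144-5p, the partner strand, had a lowest, median and highest value of 30.2, 62.4 and 92.6 RPM in WKY (61.6 ± 20.6, SD, n = 6). The corresponding values were 42.6, 60.1 and 89.6 RPM in SHR (61.3 ± 17.4, SD, n = 6) and 42.4, 63.5 and 78.8 RPM in QDG (62.3 ± 12.7, SD, n = 6). Both the highest and the lowest of the 18 values belonged to WKY, replicates 5 and 1, and the group means differed by less than any group's SD.

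miR-486, the miRNA that muscle makes as well, had a lowest, median and highest value of 3419, 4638 and 5044 RPM in WKY (4388 ± 643, SD, n = 6). They were 3516, 4204 and 5412 RPM in SHR (4301 ± 647, SD, n = 6) and 3627, 4079 and 4701 RPM in QDG (4122 ± 364, SD, n = 6). SHR replicate 6 was the highest library. SHR replicate 3, which was the highest SHR library for each of the other 3 miRNAs, was the lowest SHR library for miR-486.

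**Figure D1:**
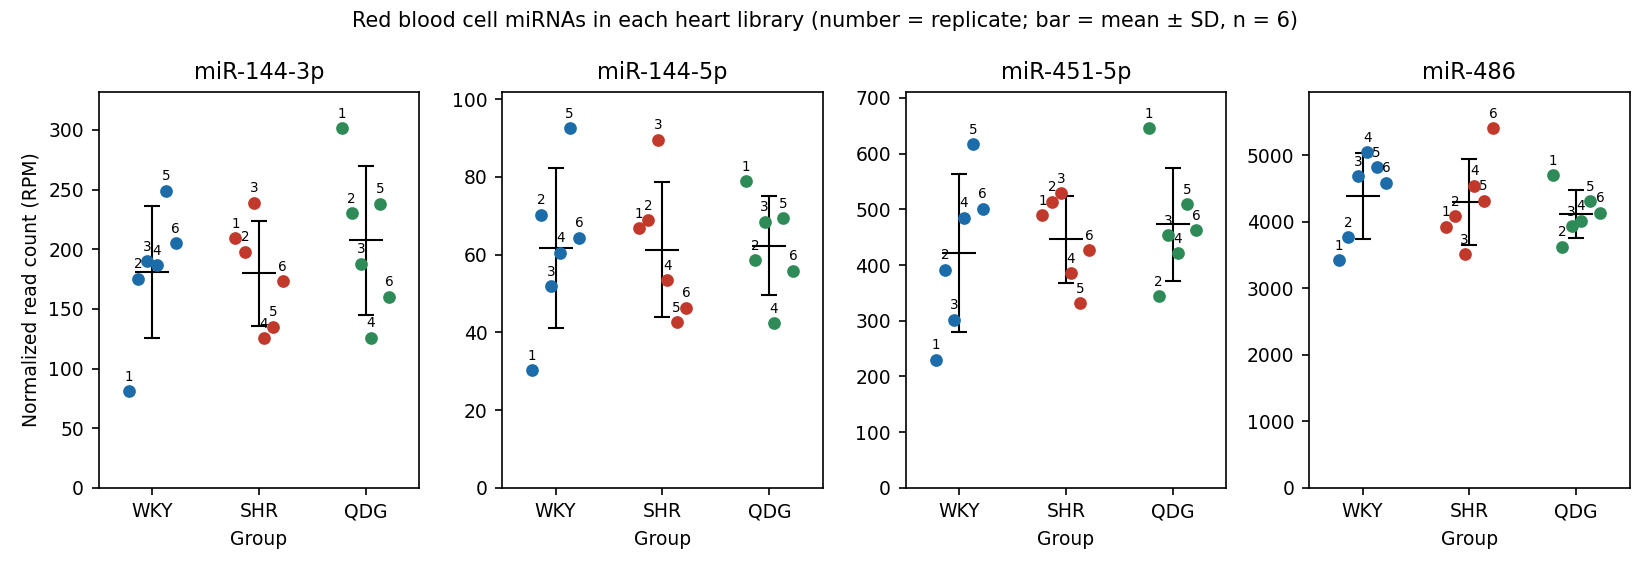
Level of each of the 4 miRNAs (vertical axes, RPM, each from 0) in each of the 18 libraries, grouped as WKY, SHR and QDG; points are libraries, and the bar and whisker show the group mean and SD (n = 6). The groups overlap in every panel, and WKY replicate 1 is the lowest library in each, at 230 RPM for miR-451-5p and 3419 RPM for miR-486.

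The miR-144 and miR-451 strands varied from library to library more than most miRNAs of at least 50 RPM, and miR-486 varied about as much as the median one. The highest library exceeded the lowest 3.73 times for miR-144-3p, 3.07 times for miR-144-5p and 2.81 times for miR-451-5p, against 1.58 times for miR-486. WKY replicate 1 is the lowest library in each case, and without it the ratios were 2.40, 2.18, 2.14 and 1.54. The coefficient of variation over 18 libraries was 27.9, 26.2, 23.7 and 12.8% in the same order, and 23.9, 22.96, 20.4 and 11.97% without WKY replicate 1. Counting error was a small part of this: the reads behind each value were 530 to 1779, 198 to 465, 1506 to 3811 and 17475 to 40068, and the largest counting error was 7.11%, for miR-144-5p. Within groups, the residual SD on the log2 scale was 0.46 for miR-144-3p, 0.42 for miR-144-5p, 0.38 for miR-451-5p and 0.19 for miR-486. The median over all 410 tested miRNAs was 0.25. Among the 174 with a mean of at least 50 RPM the median was 0.18, and there the 4 miRNAs stood at percentiles 98.3, 97.7, 95.4 and 54.6. Without WKY replicate 1 the SDs were 0.36, 0.34, 0.32 and 0.17 against a median of 0.17, at percentiles 96.6, 95.98, 94.8 and 55.2. These percentiles count the miRNA itself, which those over 18 libraries do not, so small differences between the sets have no meaning.

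**Figure D2:**
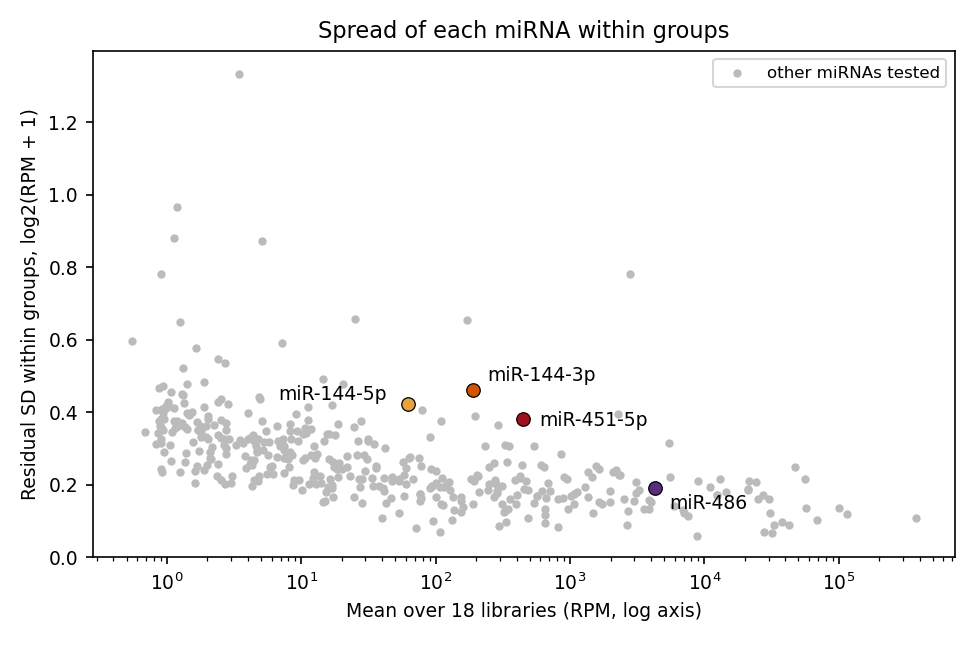
Residual SD within groups (vertical axis, log2 units) against mean level (horizontal log axis, RPM) for the 410 tested miRNAs, each a grey point, with the 4 red blood cell miRNAs marked. The miR-144 and miR-451 strands lie near the upper edge at their levels, at 0.38 to 0.46, and miR-486 lies within the bulk at 0.19.

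Setting SHR beside WKY asks whether hearts of the hypertensive strain held more or less of these miRNAs, and no difference was detected. On the scale of log2(RPM + 1), the difference was 0.14 ± 0.20 for miR-451-5p (SE, limma adjusted p = 0.672), 0.03 ± 0.26 for miR-144-3p (adjusted p = 0.941), 0.02 ± 0.22 for miR-144-5p (adjusted p = 0.953) and -0.03 ± 0.10 for miR-486 (adjusted p = 0.877). limma called 0 of the 4 miRNAs at an adjusted p under 0.05 by Benjamini-Hochberg over the 410 miRNAs tested, of which it called 23.2%. At an unadjusted p under 0.05, which 34.4% of all tested miRNAs had, it also called 0 of the 4, and edgeR, DESeq2 and limma-voom called 0. The precision was unequal. The 95% interval of the SHR to WKY ratio ran from 0.821 to 1.47 for miR-451-5p, from 0.702 to 1.48 for miR-144-3p and from 0.734 to 1.40 for miR-144-5p, but from 0.845 to 1.14 for miR-486. Without WKY replicate 1 the differences were -0.02 for miR-451-5p, -0.19 for miR-144-3p, -0.17 for miR-144-5p and -0.10 for miR-486, and none was called. Without SHR replicate 5 they were 0.22, 0.10, 0.11 and -0.03 in the same order, and none was called. In bulk tissue, a lower level from fewer red cells cannot be told apart from less of the miRNA per cell.

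QDG against SHR asks whether treatment within the hypertensive strain went with a change. The log2 differences were 0.08 ± 0.20 for miR-451-5p, 0.18 ± 0.26 for miR-144-3p, 0.04 ± 0.22 for miR-144-5p and -0.05 ± 0.10 for miR-486 (SE, limma adjusted p = 0.983 for each). Of the 4 miRNAs 0 were called, where the called share of all tested miRNAs was 0%, and 0 had an unadjusted p under 0.05, which 15 of the 410 (3.66%) had. edgeR, DESeq2 and limma-voom also called 0 of the 4. Without SHR replicate 5 the differences were -0.00332 for miR-451-5p, 0.11 for miR-144-3p, -0.052 for miR-144-5p and -0.05 for miR-486, and none was called. The 95% intervals of the ratio ran from 0.788 to 1.41 for miR-451-5p, from 0.781 to 1.65 for miR-144-3p, from 0.745 to 1.42 for miR-144-5p and from 0.831 to 1.12 for miR-486.

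QDG against WKY shares its libraries with the other comparisons and is not independent of them. The log2 differences were 0.22 ± 0.20 for miR-451-5p (SE, limma adjusted p = 0.515), 0.21 ± 0.26 for miR-144-3p (adjusted p = 0.617), 0.06 ± 0.22 for miR-144-5p (adjusted p = 0.874) and -0.08 ± 0.10 for miR-486 (adjusted p = 0.648). limma called 0 of the 4, against 17.8% of all miRNAs tested, 0 had an unadjusted p under 0.05 (31% of all tested), and edgeR, DESeq2 and limma-voom called 0. Without WKY replicate 1 the differences were 0.057 for miR-451-5p, -0.00232 for miR-144-3p, -0.12 for miR-144-5p and -0.15 for miR-486, so that library turned the direction for both miR-144 strands, and none was called. With all libraries, the upper ends of the 95% intervals were ratios of 1.56 for miR-451-5p and 1.69 for miR-144-3p, so changes of that size in these strands are not excluded by 6 libraries a group. In 0 of the 3 comparisons did the groups' 6 libraries lie wholly apart for any of the 4 miRNAs, which they did for 10.2% of tested miRNAs in SHR against WKY, 0% in QDG against SHR and 8.05% in QDG against WKY.

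**Figure D3:**
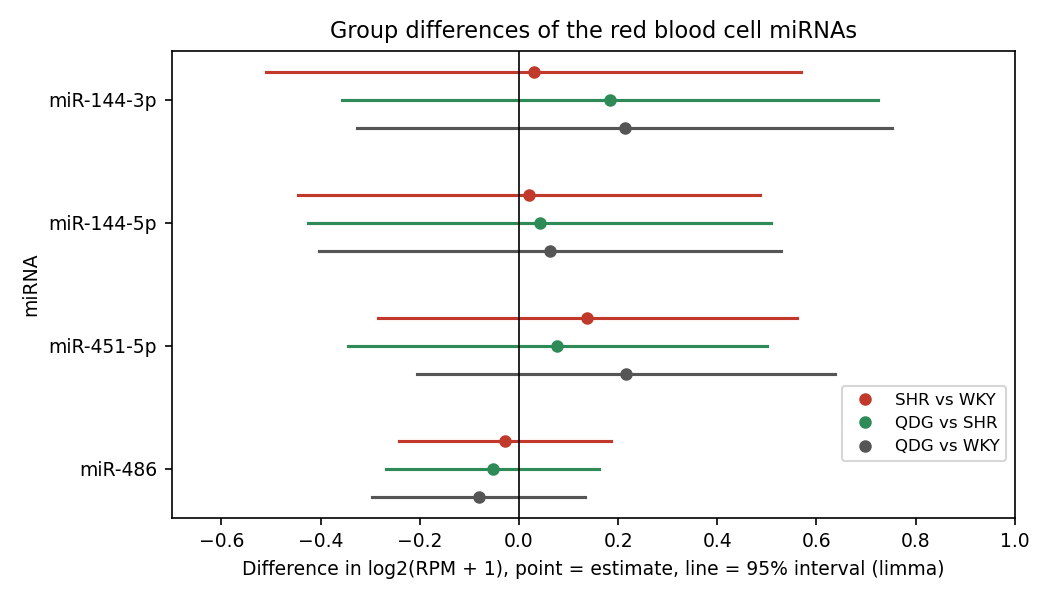
Difference between groups (horizontal axis, log2 of RPM + 1) for each of the 4 miRNAs in the 3 comparisons, with points for limma's estimate and lines for its 95% interval. Each of the 12 intervals includes 0, and those of miR-486 are the narrowest, at -0.24 to 0.19 for SHR against WKY.

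The strands from the joint transcript rose and fell together from library to library. To take out any group difference, each log2 value was centred on its group mean before correlation over the 18 libraries. Pearson's r between the 2 strands of miR-144 was 0.88 (permutation p = 2e-05, adjusted p = 0.00012 over the 6 pairs computed) and Spearman's rho was 0.82 (permutation, adjusted p = 0.00132). miR-451-5p correlated with miR-144-5p at r = 0.84 (permutation, adjusted p = 0.0003) and rho = 0.79 (permutation, adjusted p = 0.00186), and with miR-144-3p at r = 0.76 (permutation, adjusted p = 0.00164) and rho = 0.73 (permutation, adjusted p = 0.00204). Deviations of miR-451-5p from the group mean had the sign of those of miR-144-5p in 16 of 18 libraries and the sign of those of miR-144-3p in 15 of 18. Without the 2 libraries farthest from the median of the first measure, r was 0.77, 0.78 and 0.66, for which no p was computed. Without WKY replicate 1 and SHR replicate 5, r was 0.78, 0.70 and 0.57, and each of these had an adjusted permutation p under 0.05. All values of a library share its depth and its divisor.

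For miR-486 such a relation was not detected. Its r with miR-451-5p was 0.42 (permutation p = 0.137, adjusted p = 0.205), and rho was 0.34 (permutation, adjusted p = 0.327). With miR-144-3p, r was 0.30 (permutation, adjusted p = 0.324) and rho 0.18 (adjusted permutation p = 0.591), and with miR-144-5p r was 0.11 (permutation, adjusted p = 0.724) and rho -0.04 (adjusted permutation p = 0.899). Without WKY replicate 1 and WKY replicate 5, the libraries farthest out, r between miR-451-5p and miR-486 was 0.12. The 2 miRNAs lay on the same side of their group means in 10 of 18 libraries.

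**Figure D4:**
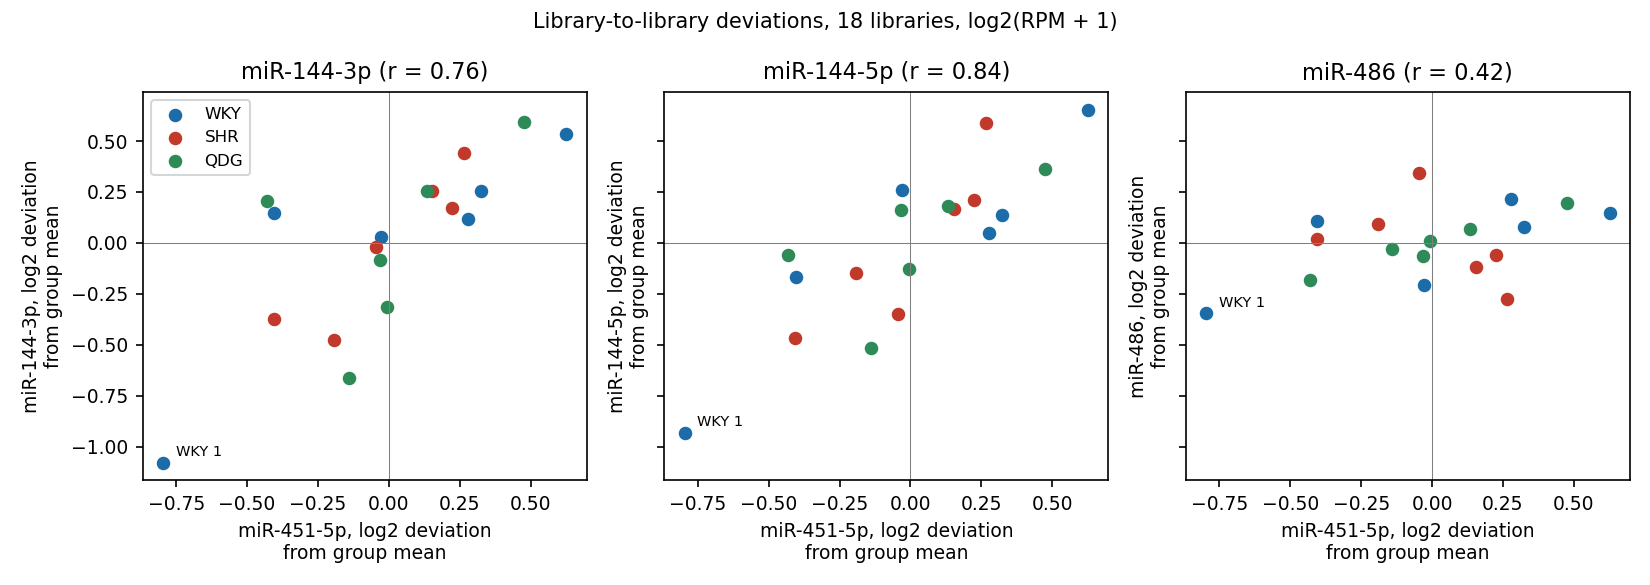
Deviation of each library from its group mean (log2 units) for both strands of miR-144 and for miR-486 (vertical axes) against that of miR-451-5p (horizontal axis), 1 point per library, with WKY replicate 1 labelled. The points follow a rising band for both miR-144 strands (r = 0.76 and 0.84) and scatter more widely for miR-486 (r = 0.42).

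Within single groups of 6 libraries, the relations of miR-486 differed in sign, while those of the joint transcript did not. The r values of miR-486 with the 3p strand of miR-144, its 5p strand and miR-451-5p were 0.82, 0.62 and 0.71 in WKY, -0.58, -0.81 and -0.53 in SHR, and 0.42, 0.50 and 0.98 in QDG. Of the 9, the value of 0.98 in QDG had the smallest p (exact permutation p = 0.00694, adjusted p = 0.05 over the 18 within-group correlations), with a rho of 0.94 (exact permutation, adjusted p = 0.1). The value of -0.81 in SHR had an exact permutation p of 0.0472 (adjusted p = 0.0944). The difference in r between groups was not tested. The 2 strands of miR-144 had r = 0.93 in WKY, 0.82 in SHR and 0.89 in QDG. miR-144-3p with miR-451-5p had 0.86, 0.92 and 0.48, and miR-144-5p with miR-451-5p had 0.91, 0.89 and 0.63 in the same order. None of the 18 had an adjusted p below 0.05.

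Slopes in limma, with group in the model, asked which of the 409 other tested miRNAs moved with miR-451-5p, as log2 change per 1 log2 unit of miR-451-5p. Called slopes made up 1.22% of those tested, 5 miRNAs, all positive, and 2 of them were the miR-144 strands. miR-144-5p had a slope of 0.93 ± 0.15 (SE, limma adjusted p = 0.000816) and miR-144-3p one of 0.93 ± 0.18 (adjusted p = 0.00679), that is, near proportion, whereas the median slope of all tested miRNAs was 0.13. miR-486 had 0.21 ± 0.12 (adjusted p = 0.367). The remaining called slopes were 0.77 ± 0.17 for miR-19a-3p (adjusted p = 0.019), which belongs to the miR-17-92 cluster, 0.56 ± 0.14 for miR-133b-3p (adjusted p = 0.0499) and 0.45 ± 0.11 for miR-208a-3p (adjusted p = 0.0442), the last 2 being muscle miRNAs. WKY replicate 1 decided these calls: without it 0 of 409 were called, with 0.80 for miR-144-5p (limma adjusted p = 0.0942) and 0.70 for miR-144-3p (adjusted p = 0.447). The count was 2 without WKY replicate 5 or WKY replicate 6, 3 without SHR replicates 1, 2 or 4 or QDG replicate 5 (each left out alone), and 8 without QDG replicate 1. Leaving out any other single library than WKY replicate 1 kept the calls of both miR-144 strands, in 17 of 18 fits. Of 13 other settings, the call of miR-144-5p was kept in 11 and that of miR-144-3p in 9, but those of miR-19a-3p, miR-208a-3p and miR-133b-3p in 4, 3 and 1.

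Slopes on miR-486 gave 12% called, 49 of 409 miRNAs, of which 47 were positive and 2 negative. Of the other 3 red blood cell miRNAs 0 were called, and 0 had an unadjusted p under 0.05, which 25.7% of all tested miRNAs had. At these shares a count of 0 in 3 says nothing about them. Their slopes were 0.83 ± 0.45 for miR-451-5p (SE, limma adjusted p = 0.257), 0.74 ± 0.59 for miR-144-3p (adjusted p = 0.483) and 0.23 ± 0.55 for miR-144-5p (adjusted p = 0.849). The median over all tested miRNAs was 0.18. The largest positive slopes among miRNAs of at least 10 RPM on average were 1.56 for miR-423-3p (limma adjusted p = 0.000644), 1.52 for miR-145-5p of vascular smooth muscle (adjusted p = 0.00564), 1.41 for miR-30c-2-3p (adjusted p = 0.000358), 1.31 for miR-3585-3p, 1.25 for miR-99a-3p and 1.24 for miR-326-3p (adjusted p = 0.0127 to 0.024). The negative ones were -1.26 for miR-374-3p (limma adjusted p = 0.024) and -0.99 for miR-338-3p (adjusted p = 0.0345). Only miR-30c-2-3p, of these 8, was called in each of the 18 fits without 1 library and in each of the 13 other settings tried. The calls of miR-3585-3p, miR-99a-3p and miR-326-3p were lost without WKY replicate 1, and those of miR-99a-3p, miR-374-3p and miR-338-3p without SHR replicate 3 or SHR replicate 6. The count of 49 fell to 21 without WKY replicate 1 and to 27 without SHR replicate 6. It was 26 with TMM scaling, 19 with RLE, 7 with upper quartile scaling, 2 with the replicate number as a block and 1 in SHR and QDG alone.

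**Figure D5:**
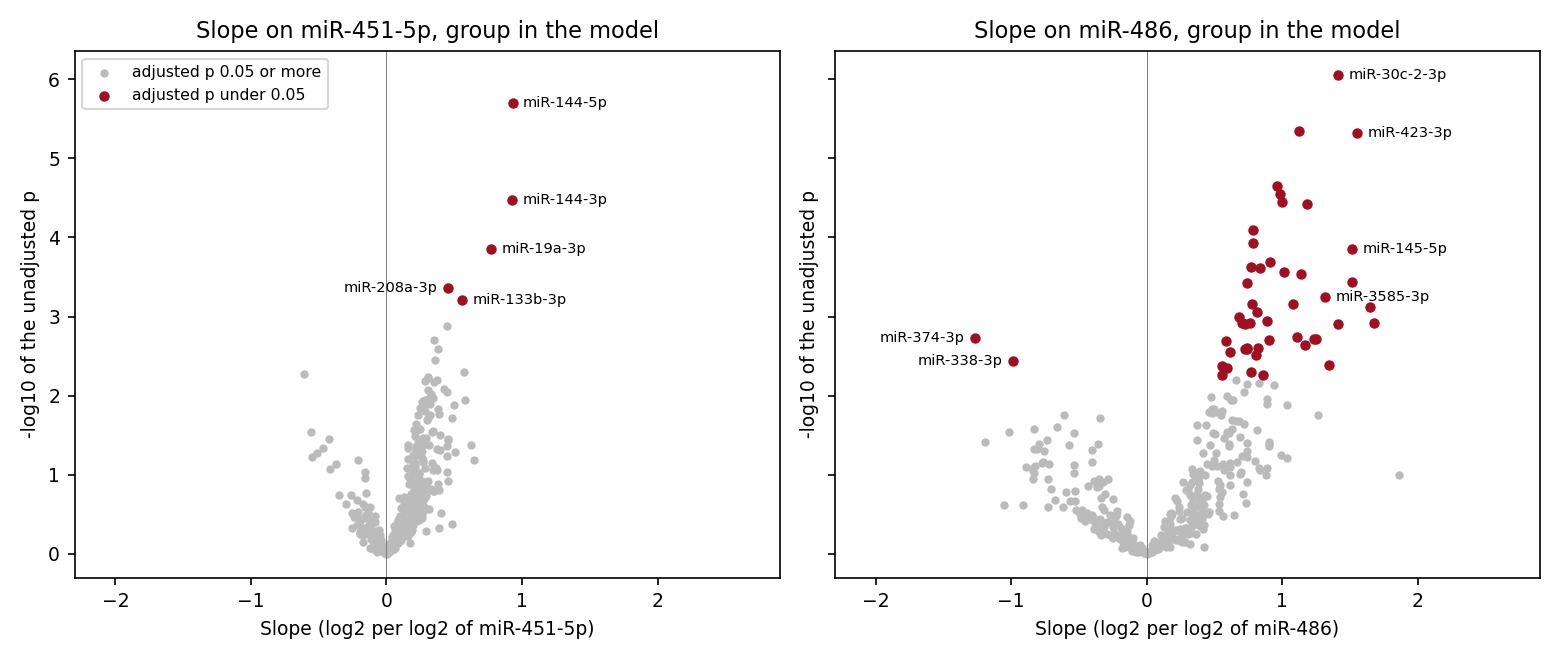
Slope of each other tested miRNA (horizontal axis, log2 per log2 unit) on miR-451-5p (left) and on miR-486 (right), with -log10 of the unadjusted p on the vertical axis. The miR-144 strands lead on the left at 0.93 each. On the right 49 miRNAs pass, and miR-144-3p at 0.74 and miR-144-5p at 0.23 do not.

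Other miRNAs that red cells or broken red cells in plasma hold in quantity were compared from a list of 15. Of these, 0 had a called slope on miR-451-5p (median slope 0.23 against 0.13 for all tested miRNAs), where only 1.22% of all tested miRNAs had one, so a count of 0 in 15 says nothing about the list. On miR-486, where 12% of all tested miRNAs had a called slope, 5 of the 15 did (median 0.49 against 0.18): miR-92a-3p at 0.96 (limma adjusted p = 0.00223), miR-532-5p at 1.00 (adjusted p = 0.00223), miR-25-3p at 0.74 (adjusted p = 0.00912), miR-652-3p at 0.68 (adjusted p = 0.0176) and miR-185-5p at 0.59 (adjusted p = 0.0241). Without SHR replicate 6 the calls of miR-25-3p, miR-652-3p and miR-185-5p were lost, that of miR-185-5p also without SHR replicate 3 and that of miR-652-3p without WKY replicate 1. In the 13 other settings, the calls of miR-25-3p and miR-532-5p were kept in 11, that of miR-92a-3p in 10, that of miR-185-5p in 8 and that of miR-652-3p in 7. Most of these 15 miRNAs, miR-16-5p and miR-17-5p among them, are made by many cell types. Between groups, limma called 0 of the 15 in SHR against WKY, QDG against SHR and QDG against WKY, where it called 23.2, 0 and 17.8% of all tested miRNAs, with median log2 differences of 0.04 in SHR against WKY, -0.07 in QDG against SHR and -0.01 in QDG against WKY. The medians over all tested miRNAs were -0.07, 0.02 and -0.06. The ratio of miR-451-5p to miR-23a-3p, a pair used in plasma to detect broken red cells, had log2 values of -3.43 to -2.41 in WKY, -3.37 to -2.40 in SHR and -2.99 to -2.14 in QDG, which overlap.

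Markers of other cells were read beside these results. Of 8 white blood cell and platelet miRNAs, 0 had a called slope on miR-451-5p (1.22% of all tested miRNAs) and 1 had one on miR-486 (12% of all tested), miR-150-5p of lymphocytes at 0.77 (limma adjusted p = 0.00755), a call lost without WKY replicate 1 and kept in 9 of 13 other settings. Between groups, 2 of the 8 rose in SHR against WKY, where 8.05% of all tested miRNAs rose and 15.1% fell (33 and 62, but 52 and 43 with TMM scaling): miR-146b-5p by 0.51 (limma adjusted p = 0.0122) and miR-155-5p, made in activated immune cells, by 0.48 (adjusted p = 0.0128). In QDG against WKY, where 7.32% of all tested miRNAs rose and 10.5% fell (30 and 43, but 50 and 32 with TMM scaling), 3 of the 8 rose: miR-146b-5p by 0.54 (limma adjusted p = 0.00843), miR-155-5p by 0.41 and miR-142-3p, a general blood cell miRNA, by 0.38 (adjusted p = 0.0422 for each). The calls of miR-155-5p and miR-142-3p in QDG against WKY were lost without WKY replicate 1, among other libraries, and that of miR-146b-5p in SHR against WKY with both outlying libraries left out (limma adjusted p = 0.0533). In QDG against SHR 0 of the 8 were called. Other members of the list were lower, none of them called. In SHR against WKY miR-146a-5p was at -0.29, miR-150-5p at -0.24 and miR-142-5p at -0.13, with a list median of 0.13. In QDG against WKY miR-150-5p was at -0.27, miR-146a-5p at -0.26 and miR-191a-5p at -0.01, with a list median of 0.05. The 5p strand of miR-142 was at 0.00690 there, beside 0.38 for its 3p strand. The list summed to 13752 to 18084 RPM in WKY, 14094 to 15914 in SHR and 12362 to 17124 in QDG.

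Of 11 striated muscle miRNAs, 2 had a called slope on miR-451-5p (miR-133b-3p and miR-208a-3p, above) and 0 on miR-486, beside 1.22% and 12% of all tested miRNAs. The list's slopes on miR-451-5p ran from -0.12 (miR-206-3p) to 0.56, with a median of 0.23 against 0.13 for all tested miRNAs. Its most abundant members, miR-1b and miR-1-3p, had -0.05 and 0.02, and miR-208b-3p had -0.09. Slopes of the list on miR-486 differed in sign, from -0.66 (miR-206-3p) to 0.83 (miR-208a-5p), with a median of 0.30 against 0.18. miR-133a-3p had 0.74 on miR-486 (limma adjusted p = 0.0553, as for miR-208a-5p), whereas miR-1b had -0.35 and miR-1-3p -0.36. At a share of 12%, a count of 0 in 11 says little about the list. Of 5 smooth muscle and fibroblast miRNAs, 0 had a called slope on miR-451-5p and 3 had one on miR-486, beside 1.22% and 12% of all tested miRNAs: miR-145-5p, miR-143-3p at 0.83 and miR-214-3p at 0.86. The rest of the list was not called and differed in sign. On miR-486, miR-199a-5p had 0.48 (limma adjusted p = 0.250) and the more abundant miR-199a-3p -0.36 (adjusted p = 0.339). The call of miR-214-3p was kept in 6 of 18 fits without 1 library, those of miR-145-5p and miR-143-3p in 18. In the 13 other settings the calls were kept in 5 for miR-214-3p, 8 for miR-145-5p and 10 for miR-143-3p, and that of miR-145-5p was lost with TMM, RLE and upper quartile scaling. Of the endothelial miRNAs miR-126a-3p and miR-126a-5p and the liver miRNAs miR-122-5p and miR-192-5p, 0 had a called slope on either. The part of these cell types in the levels of miR-486 was not tested.

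By the likeness of their deviations from group means over the 18 libraries, the 5 miRNAs closest to miR-451-5p outside the 4 studied, of 245 with a mean of at least 10 RPM, were miR-425-5p (r = 0.74, rho = 0.56), miR-208a-3p (0.73, 0.70), miR-19a-3p (0.72, 0.74), miR-130a-3p (0.71, 0.62) and miR-505-3p (0.70, 0.62). The 5 closest to miR-486 were miR-28-3p (r = 0.87, rho = 0.90), miR-30c-2-3p (0.87, 0.85), miR-30a-3p (0.87, 0.87), miR-92a-3p (0.86, 0.75) and miR-351-5p (0.85, 0.83). The lists have 0 miRNAs in common. These values describe the libraries, which share depth and divisor within each.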

How the data were processed

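Per the labels' protocols, total RNA from heart was extracted with Trizol and made into libraries with the NEBNext kit. FastQC, TopHat2 and limma are listed in the submitters' processing notes, without roles or versions. No source used here gives the genome build or how reads that fit several miRNAs were counted. The deposited values, normalized read counts per the file headers, were treated as a signal: in each library they are whole multiples of a single step, so that the authors appear to have divided reads by a number particular to the library and scaled to 1000000 (RPM). Whole reads were recovered with that step, and 10782 of 10782 came out whole to 0.01 of a read. Library sums exceed 1000000.

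The 410 of 599 miRNAs that reached 1 RPM in 6 or more libraries were fitted as log2(RPM + 1) with limma (3.58.1, R 4.3.3, trend and robust) on all 18 libraries, without covariates. A fold change on this scale understates the change of scarce miRNAs. p-values were adjusted by Benjamini-Hochberg over all tested miRNAs, with a threshold of 0.05. Slopes were fitted with group and the log2 level of the predictor. Correlations used 100000 two-sided permutations within groups, and exact two-sided permutations inside a group of 6. edgeR (4.0.16), DESeq2 (1.42.0) and limma-voom were run on the recovered reads. The design had planned limma for normalized values and edgeR only for whole-number counts. The limma steps were tested on simulated data. Hairpin loops were predicted with RNAfold (2.7.2) on RefSeq sequences. Counting error covers counting alone, since reads without molecular identifiers are not independent molecules. The miRNAs and lists were chosen with earlier results of these data known. Slopes named are the called ones, up to 6 per direction, with a mean of at least 10 RPM, and list members are named where called. The alternatives are given in the closing section.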

Additional observations from a re-analysis of the deposited data

How the results depend on the processing

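In each of the 34 other settings, 18 of them without 1 library, 0 of the 4 miRNAs were called in any comparison, and the 3 correlations among the miR-144 and miR-451 strands passed in each setting run. Signs of the group differences are not fixed: 40 of 408 recomputed differences reversed. Part of the 408 could not reverse. Leaving out a library of the group not compared, or changing only the filter, the moderation or the block, leaves the estimate as it was. The log2 difference of miR-486 in SHR against WKY was 0.074 with TMM, 0.048 with RLE, 0.027 with upper quartile scaling, 0.023 without the 10 most abundant miRNAs and 0.018 without the 4 studied in the total, 0.029 with edgeR, 0.056 with DESeq2 and 0.024 with limma-voom, and in QDG against WKY 0.00341 with TMM. miR-144-5p in QDG against SHR had -0.00761 without the 10 most abundant, -0.00366 with edgeR and -0.014 with DESeq2. Leaving out WKY replicate 1 and SHR replicate 5 together, chosen after seeing the data, gave -0.11 (miR-144-3p) and -0.072 (miR-144-5p) in SHR against WKY, -0.052 (miR-144-5p) and -0.00332 (miR-451-5p) in QDG against SHR, and -0.00232 (miR-144-3p) and -0.12 (miR-144-5p) in QDG against WKY. Without 1 library each, differences in SHR against WKY ranged from -0.19 to 0.14 (miR-144-3p), -0.17 to 0.15 (miR-144-5p), -0.021 to 0.26 (miR-451-5p) and -0.10 to 0.028 (miR-486). In QDG against WKY they ranged from -0.00232 to 0.35 (miR-144-3p) and -0.12 to 0.19 (miR-144-5p), and in QDG against SHR from -0.052 to 0.16 (miR-144-5p), -0.017 to 0.16 (miR-451-5p) and -0.11 to 0.016 (miR-486).

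The r of miR-144-5p with miR-486 was -0.16 with TMM, -0.26 with RLE, -0.063 without the 10 most abundant and -0.33 without WKY replicate 1 and SHR replicate 5, where that of miR-144-3p was -0.041; without 1 library they ranged from -0.32 to 0.32 and from -0.049 to 0.47. Slopes called on miR-451-5p, 5 as reported, numbered 3 with no filter, 2 with TMM, 1 with RLE or upper quartile scaling, 2 without the 10 most abundant, without the 4 studied or without trend and robust moderation, and 0 with SHR and QDG only or without WKY replicate 1 and SHR replicate 5; without 1 library the range was 0 to 8. Slopes on miR-486, 49 as reported, numbered 26 (TMM), 19 (RLE), 7 (upper quartile), 1 (SHR and QDG only) and 22 (without both libraries), with a range of 21 to 56 without 1 library. The cause was not tested.

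Same-numbered libraries of different groups had correlations of -0.17 to 0.23, and those of QDG with WKY were all positive, at 0.00412 to 0.20. By such correlations, the closest library of the other group had the same number for 2 of 12 libraries in SHR against WKY. This held for 0 of 12 in QDG against SHR and 3 of 12 in QDG against WKY. Whether the numbers mark a pairing or a batch was not tested. With the replicate number as a block, 0 of the 4 miRNAs were called in each comparison, 93, 0 and 77 of all miRNAs in SHR against WKY, QDG against SHR and QDG against WKY, and 2 slopes on either predictor. Scaling changed the split of calls in SHR against WKY, 33 higher and 62 lower as reported, to 52 and 43 with TMM, and in QDG against WKY, 30 and 43 as reported, to 50 and 32 with TMM, 42 and 40 with RLE and 42 and 41 with upper quartile scaling. The depth of 198 to 465 reads limits miR-144-5p most.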
